A study of Homo sapiens with 8 samples.

Results

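The human colorectal adenocarcinoma line Caco2 was compared with the human melanoma line WM115 across all genes that the arrays could measure. A probe was taken where its detection p-value, which ranks its signal against the negative control probes of the same array, was under 0.05 on all 4 arrays of at least 1 of the lines, and 12691 of the 22184 probes met this, for 10431 of 16546 named genes. Of these, 9803 were detected on all 8 arrays, 618 on all 4 Caco2 arrays and no WM115 array, 657 on all 4 Caco2 arrays and 1 to 3 WM115 arrays, 764 on all 4 WM115 arrays and no Caco2 array, and 849 on all 4 WM115 arrays and 1 to 3 Caco2 arrays. On the weakest array of its line, the last probe taken in had a detection p-value of 0.0494, shared by 41 probes, and the first one left out had 0.0508, shared by 40 probes, while 861 probes left out were detected on 3 arrays of a line.

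Both lines had been sorted by flow cytometry with AC133, an antibody to an epitope of the PROM1 protein, into the brightest 10% of cells (AC133 high) and cells without staining (AC133 negative), and scatter and propidium iodide served to leave out doublets and dead cells. Sorting was done on separate occasions, sort 1 and sort 2, so each line has 4 arrays, 2 of AC133 high and 2 of AC133 negative cells, and a difference between lines weighs both gates equally. The Caco2 cells were clones carrying a lentiviral reporter, enhanced green fluorescent protein under the mouse Melk promoter, 2 clones in all with no record of which clone entered which sort, and were grown in DMEM with 20% fetal bovine serum. The WM115 cells carried no such reporter and were grown in RPMI with 10% fetal calf serum. Neither line received a drug. All 8 arrays lie on the same slide, Caco2 on its first 4 positions and WM115 on its last 4, so line, position, medium, serum and reporter cannot be told apart. The submitters call the repeats biological duplicates. The high and negative arrays of a sort carry the same sort number in their labels, so they may share a culture. Each lineage is represented by 1 cell line, so every difference below is between these lines.

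Colonic absorptive cells carry a brush border of microvilli built on actin bundlers such as villin, are joined by cadherins, claudins and desmosomes, and take their identity from transcription factors of the CDX, FOXA and GATA families. Caco2 is known for forming enterocyte-like sheets in culture that secrete apolipoproteins and other plasma proteins, as fetal intestine and liver do. Melanocytes arise from the neural crest under SOX10, PAX3 and MITF, and MITF drives the genes of the melanosome, the organelle that makes and stores pigment.

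The arrays detected 53.7% to 59.2% of probes, with a median of 41 or 42 beads per probe. Arrays of the same line had correlations of 0.970 to 0.989 over the probes taken, and arrays of different lines 0.742 to 0.765. The line accounted for 89.4% of the sum of squares and the spread within the 4 groups for 6.71%. The WM115 AC133 negative array of sort 2 stood apart from the other WM115 arrays on the second principal component, which held 3.41% of the variance.

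In a fit of all 8 arrays, 3549 probes (28%) were called different between the lines, which here means a Benjamini-Hochberg adjusted p below 0.05 in limma and a difference of at least 2-fold, or 1 on the log2 scale. Of these, 1755 (13.8%) were higher in Caco2 and 1794 (14.1%) were lower. With the adjusted p alone 7825 probes (61.7%) passed, 3916 of them higher in Caco2 (30.9%) and 3909 lower (30.8%). All 4 Caco2 arrays lay above all 4 WM115 arrays for 28.9% of probes and below them for 29.1%, 58% in all. A probe detected in only 1 line entered through that line, which largely set the direction of its difference but not its size. Of the 618 probes on all 4 Caco2 arrays and no WM115 array 498 were called. Of the 764 on all 4 WM115 arrays and no Caco2 array 527 were called. The 9803 probes detected on all 8 arrays were therefore counted apart. Among them 1980 (20.2%) were called, 989 higher (10.1%) and 991 lower (10.1%), and at least 4-fold differences were found for 199 higher (2.03%) and 250 lower (2.55%). The median size of the line difference was 0.54 on the log2 scale, against 0.14 between AC133 high and negative cells in Caco2, 0.12 in WM115, and 0.17 to 0.23 between repeat sorts. Per gene, with the brightest probe standing for it, 1473 of 10431 genes (14.1%) were higher in Caco2 and 1523 (14.6%) were lower, and the list counts below are read against these shares. Of the 8225 genes detected on all 8 arrays, 845 (10.3%) were higher and 861 (10.5%) lower. Where most members of a list were detected in 1 line only, the direction of its count follows from how they entered, and the members detected on all 8 arrays are counted apart.

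**Figure D1:**
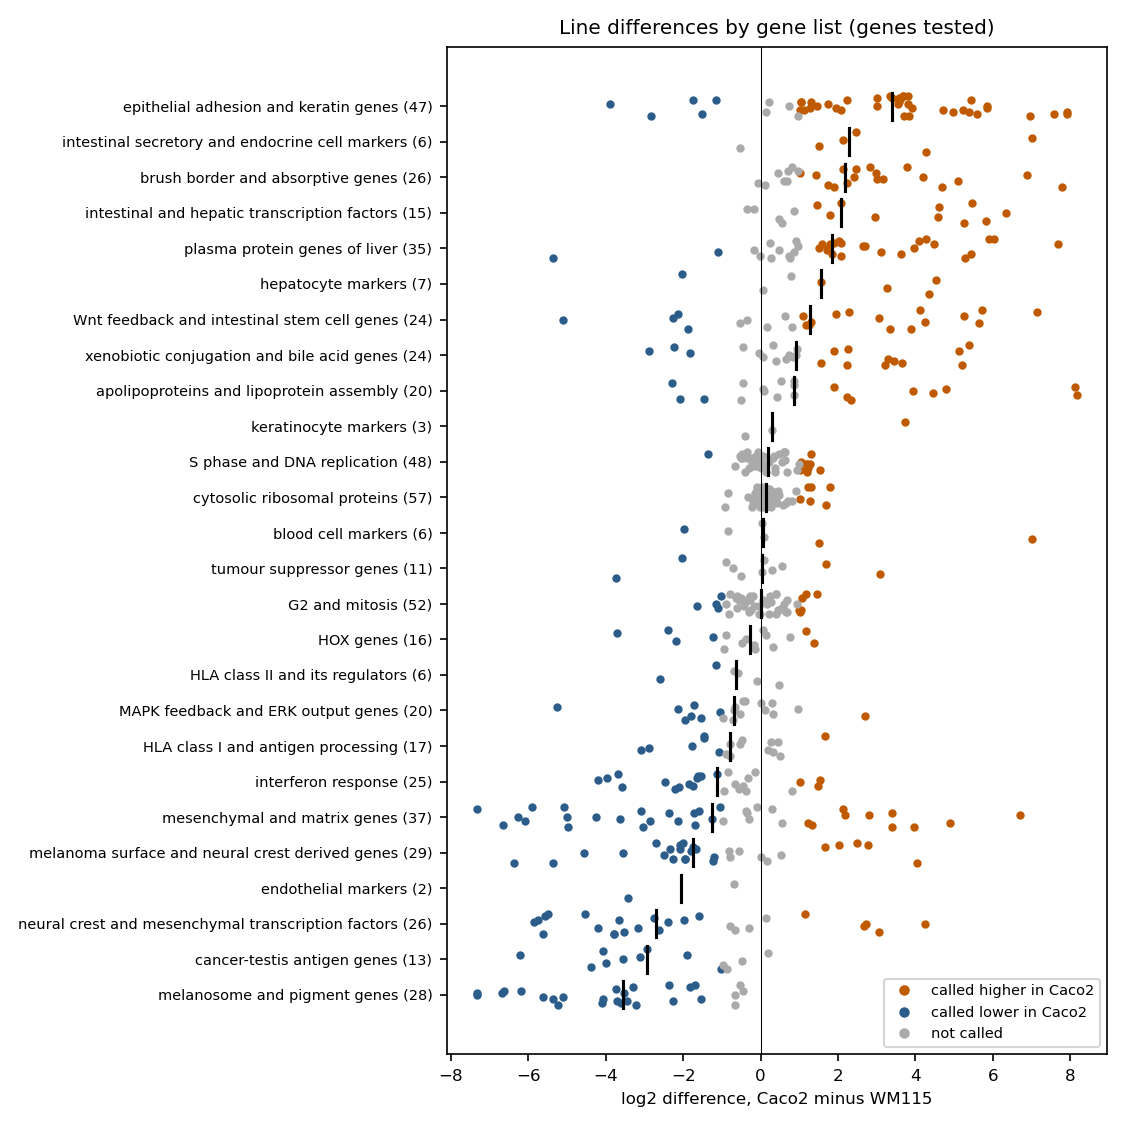
The log2 difference, Caco2 minus WM115, of each tested gene (points) in 26 gene lists, with the number tested in parentheses and the list median as a black bar. Epithelial genes had a median of 3.39 and melanosome genes one of -3.56, while the ribosomal, S phase and mitotic lists had medians near 0.

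Gene lists of known pathways and cell types were used to describe these counts. They hold 910 genes, of which 589 were tested, 223 had a probe that did not meet the detection rule and 98 had no probe here. Of those tested 324 were called, with an adjusted p of at most 0.0332 and standard errors of 0.104 to 0.679. For a gene detected on all arrays of one line and none of the other, the fold is given as a lower bound ("at least N-fold"), taken against the lowest signal that still counted as detected on each array of the other line. Levels are normalized log2 signals, where a value of about 4.5 is the level of undetected probes, and are compared between arrays for the same gene but not between genes. A mean ± SD is over the 4 arrays of a line, and differences are log2 values of Caco2 minus WM115, so a negative one is lower in Caco2. In bulk RNA, more cells expressing a gene and more RNA per cell cannot be told apart.

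Transcription factor genes of intestine and liver were detected mainly in Caco2. Of 15 tested, 10 were called higher and 0 lower, with a median difference of 2.09, and 2 of the 15 were detected on all 8 arrays, of which ELF3 was called. CDX2, the homeobox gene that specifies intestine, had 9.23 and 9.32 on the Caco2 AC133 high arrays and 8.56 and 9.07 on the AC133 negative arrays, against 4.41, 4.53, 4.47 and 4.40 on the WM115 arrays. No WM115 array detected it, and Caco2 was at least 20.0-fold higher (adjusted p 1.20e-08). The forkhead genes FOXA1 and FOXA2, which open chromatin in gut endoderm and liver, were at least 65.0-fold and 41.9-fold higher in Caco2, with FOXA1 at 11.17 and 11.21 in AC133 high and 10.32 and 10.28 in AC133 negative Caco2 cells. CEBPA, a regulator of liver and fat cell genes, was at least 37.0-fold higher, FOXA3 at least 21.2-fold higher. ASCL2, the transcription factor of intestinal stem cells, had 9.97 ± 0.29 in Caco2 and 4.71 ± 0.21 in WM115 (SD, n = 4 arrays each), with a difference of 5.27 (SE 0.14). KLF5, NR5A2 and GATA6 differed by 2.97, 2.09 and 1.79, and ELF3, an epithelial ETS factor detected in both lines, by 1.47. HNF4G, CREB3L3, EHF, KLF4 and the secretory cell factor ATOH1 were not called, with differences of 0.56, 0.85, 0.48, -0.17 and -0.36. CDX1, GATA4 and GATA5 were detected on no array.

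Brush border and absorptive genes were likewise detected mainly in Caco2. Of 47 with a probe, 26 were tested, 18 were called higher in Caco2 and 0 lower, and the median difference was 2.19. No WM115 array detected 16 of the 26, and all 8 arrays detected 2, XPNPEP2 and CDHR2, neither of which was called, so the direction of the 18 follows from detection in Caco2. CDH17, the cadherin of intestinal epithelium, had 11.83 and 11.67 in AC133 high and 11.09 and 11.09 in AC133 negative Caco2 cells, against 4.45 to 4.62 in WM115, at least 104-fold higher in Caco2. VIL1, which encodes villin, ranged from 9.40 to 9.71 on the Caco2 arrays and from 4.45 to 4.52 on the WM115 arrays, at least 29.0-fold higher. Neither gene overlapped between the lines, which held for 58% of all probes, and both were also higher within each gate. As both were detected in Caco2 alone, this largely follows from how they entered. TSPAN8, a tetraspanin of gut epithelium, was at least 178-fold higher, A1CF, the partner of the enzyme that edits apolipoprotein B RNA, at least 21.5-fold, the peptidase gene DPP4 at least 15.0-fold and carbonic anhydrase CA2 at least 10.7-fold. FABP1, a fatty acid binding protein of enterocytes and hepatocytes, differed by 3.00. Genes of the mature small intestinal enterocyte were low or undetected, with SI, FABP2 and SLC2A2 on no array, ALPI and LCT not called (0.45 and 0.67) and the aminopeptidase gene ANPEP not called (0.61).

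Genes for plasma proteins made by the liver were another large group. Of 35 tested, 23 were called higher in Caco2 and 2 lower, with a median difference of 1.84, and of the 7 detected on all 8 arrays 2 were higher and 1 was lower. VTN, which encodes the adhesion protein vitronectin, had 12.47 and 12.21 in AC133 high and 11.65 and 11.83 in AC133 negative Caco2 cells, against 4.33 to 4.39 in WM115, at least 159.7-fold higher. The fetuin gene AHSG, the prothrombin gene F2 and the transthyretin gene TTR were at least 56.5-fold, 49.8-fold and 31.1-fold higher. The 3 fibrinogen chain genes FGB, FGA and FGG differed by 4.08, 3.62 and 3.97. SERPINA1, the alpha-1 antitrypsin gene, was detected in both lines and had 11.98 and 11.95 in AC133 high and 11.71 and 11.70 in AC133 negative Caco2 cells, against 6.17 and 6.45 in AC133 high and 6.09 and 6.92 in AC133 negative WM115 cells, a 43.0-fold difference (adjusted p 2.30e-08). A2M, a protease inhibitor, and PROS1, an anticoagulant cofactor, were the 2 lower in Caco2, with differences of -5.35 and -1.11. Of 7 hepatocyte markers beyond secreted proteins that were tested, 4 were called higher in Caco2 and 1 lower, with a median difference of 1.56. Of the 2 detected on all 8 arrays 0 were higher and 1 was lower. The asialoglycoprotein receptor genes ASGR1 and ASGR2 were at least 18.5-fold and 18.6-fold higher and the urea cycle gene CPS1 was lower (-2.04). CYP3A4, CYP7A1, ARG1, OTC and TAT were on no array.

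The promoters of plasma protein genes are shown because 3 hold the letters of a site of the HNF4 factors, regulators of liver and gut genes. The 300 bases from 250 before to 50 after the annotated start (RefSeq, GRCh38.p14) were searched on both strands for the HNF4 site CAAAGTCC, the TATA box TATAAA and the melanocyte M-box TCATGTG. CAAAGTCC was found in 3 of the 18 plasma protein genes called higher with a promoter in the table (16.7%), against 1.21% of 27305 promoters. Among other genes called higher it was in 1 of 11 brush border genes (9.09%), 0 of 5 apolipoprotein and lipoprotein assembly genes and 0 of 8 intestinal and hepatic transcription factor genes. Among genes called lower it was in 1 of 19 melanosome genes (5.26%) and 0 of 10 neural crest and mesenchymal transcription factor genes. TATAAA was found in 5 of the 18 (27.8%) and in 5 of 8 intestinal and hepatic transcription factor genes called higher (62.5%), against 12% of all promoters. In the other lists it was in 1 of 5 apolipoprotein (20%), 2 of 11 brush border (18.2%), 2 of 19 melanosome (10.5%) and 1 of 10 neural crest (10%) genes. A match says only that these letters are present. The 3 holders of CAAAGTCC were AHSG, HABP2, which encodes a hyaluronan-binding serine protease (at least 3.45-fold higher in Caco2), and the coagulation factor X gene F10 (at least 2.78-fold). Their promoters follow, 5′ to 3′ on the gene's strand, with only the CAAAGTCC match in capitals, which reads GGACTTTG where it lies on the opposite strand. The match begins 178 bases before the start of AHSG, 181 before that of HABP2 and 1 before that of F10. In HABP2 the M-box letters TCATGTG directly follow it, in small letters.
AHSG, chr3:186612810-186613109, plus strand: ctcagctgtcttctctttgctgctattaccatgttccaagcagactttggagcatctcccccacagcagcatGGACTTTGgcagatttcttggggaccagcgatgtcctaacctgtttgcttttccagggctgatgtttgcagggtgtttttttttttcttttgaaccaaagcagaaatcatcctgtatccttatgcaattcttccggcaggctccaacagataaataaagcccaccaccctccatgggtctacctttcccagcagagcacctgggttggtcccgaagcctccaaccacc
HABP2, chr10:113550581-113550880, plus strand: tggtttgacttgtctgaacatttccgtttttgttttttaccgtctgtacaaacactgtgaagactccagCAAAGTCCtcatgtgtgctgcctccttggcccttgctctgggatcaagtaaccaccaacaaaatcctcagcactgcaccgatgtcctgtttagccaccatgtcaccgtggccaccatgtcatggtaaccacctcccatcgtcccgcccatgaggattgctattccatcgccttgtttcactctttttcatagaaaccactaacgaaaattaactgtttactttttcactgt
F10, chr13:113122549-113122848, plus strand: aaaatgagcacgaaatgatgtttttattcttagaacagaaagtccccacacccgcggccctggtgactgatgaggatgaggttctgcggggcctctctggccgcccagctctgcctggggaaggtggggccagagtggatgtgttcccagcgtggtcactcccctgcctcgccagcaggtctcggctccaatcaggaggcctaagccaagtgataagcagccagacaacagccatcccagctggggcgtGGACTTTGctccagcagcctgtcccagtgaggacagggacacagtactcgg

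Apolipoprotein and lipoprotein assembly genes split by member. Of 20 tested, 8 were called higher in Caco2 and 3 lower, and the 8 detected on all 8 arrays held 0 higher and 3 lower. APOA1 and APOA2, the main proteins of high density lipoprotein, had the largest bounds of any named genes, at least 218-fold and 219-fold. APOA1 had 12.89 and 12.83 in AC133 high and 12.11 and 12.13 in AC133 negative Caco2 cells, against 4.30 to 4.45 in WM115. APOB, the scaffold of chylomicrons, was at least 23.8-fold higher, APOC3 at least 12.8-fold, and MTTP, which loads lipid onto the APOB protein, differed by 2.24. The lower ones were APOC2 at -2.29, APOD at -2.09 and the high density lipoprotein receptor gene SCARB1 at -1.47, while APOE was not called at 0.87. Among conjugation and bile acid genes 11 of 24 were higher and 3 lower, and of the 8 detected on all 8 arrays 2 were higher and 1 was lower, with the glutathione transferase genes GSTA1 and GSTA2 at least 28.9-fold and 26.4-fold higher and the glucuronosyltransferase gene UGT2B7 lower at -2.87. GSTA1 and GSTA2 are near-identical in sequence, so their probes may read both.

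Epithelial keratins and junctions made up the list with the highest median, 3.39. Of 47 genes tested, 38 were called higher in Caco2 and 5 lower, and of the 13 detected on all 8 arrays 7 were higher and 4 lower. KRT19, a keratin of simple epithelia, had 12.19 and 12.30 in AC133 high and 12.31 and 12.23 in AC133 negative Caco2 cells, against 4.31 to 4.38 in WM115, at least 185-fold higher. KRT8 differed by 7.91 and its partner KRT18 by 3.79. All 4 WM115 arrays detected KRT18, at 9.55 to 9.86, while 1 of 4 WM115 arrays detected KRT8, and a second KRT18 probe differed by 0.97 and was not called. EPCAM, the epithelial cell adhesion gene, had 12.40 ± 0.16 in Caco2 and 4.82 ± 0.22 in WM115 (SD, n = 4 arrays each), a difference of 7.59. CDH1, which encodes E-cadherin, was low by this probe, with 5.50 and 5.36 in AC133 high and 5.65 and 5.54 in AC133 negative Caco2 cells, against 4.50 to 4.51 in WM115. Its difference of 1.01 lay just past the 2-fold limit, at least 1.73-fold by the bound, and fell short of it, at 0.97 and 0.98, on omitting either Caco2 array of sort 1. The tight junction scaffold TJP1 (4.70), the plakoglobin gene JUP (3.80), the claudin genes CLDN1, CLDN7 and CLDN2 (5.86, 5.23 and 3.91), the desmosome genes PKP2 and DSP (5.39 and 3.39) and the small GTPase gene RAB25 (5.43) were all called higher. The 5 lower in Caco2 were CEACAM1, FXYD3, ERBB3, CLDN12 and CLDN15. CEACAM1, an adhesion molecule of epithelia and of melanoma, had 7.64 and 7.86 in AC133 high and 6.12 and 5.93 in AC133 negative Caco2 cells, against 11.58 and 11.23 in AC133 high and 10.64 and 9.69 in AC133 negative WM115 cells, a difference of -3.90. Its relative CEACAM6 ran the other way and was at least 23.5-fold higher in Caco2.

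**Figure D2:**
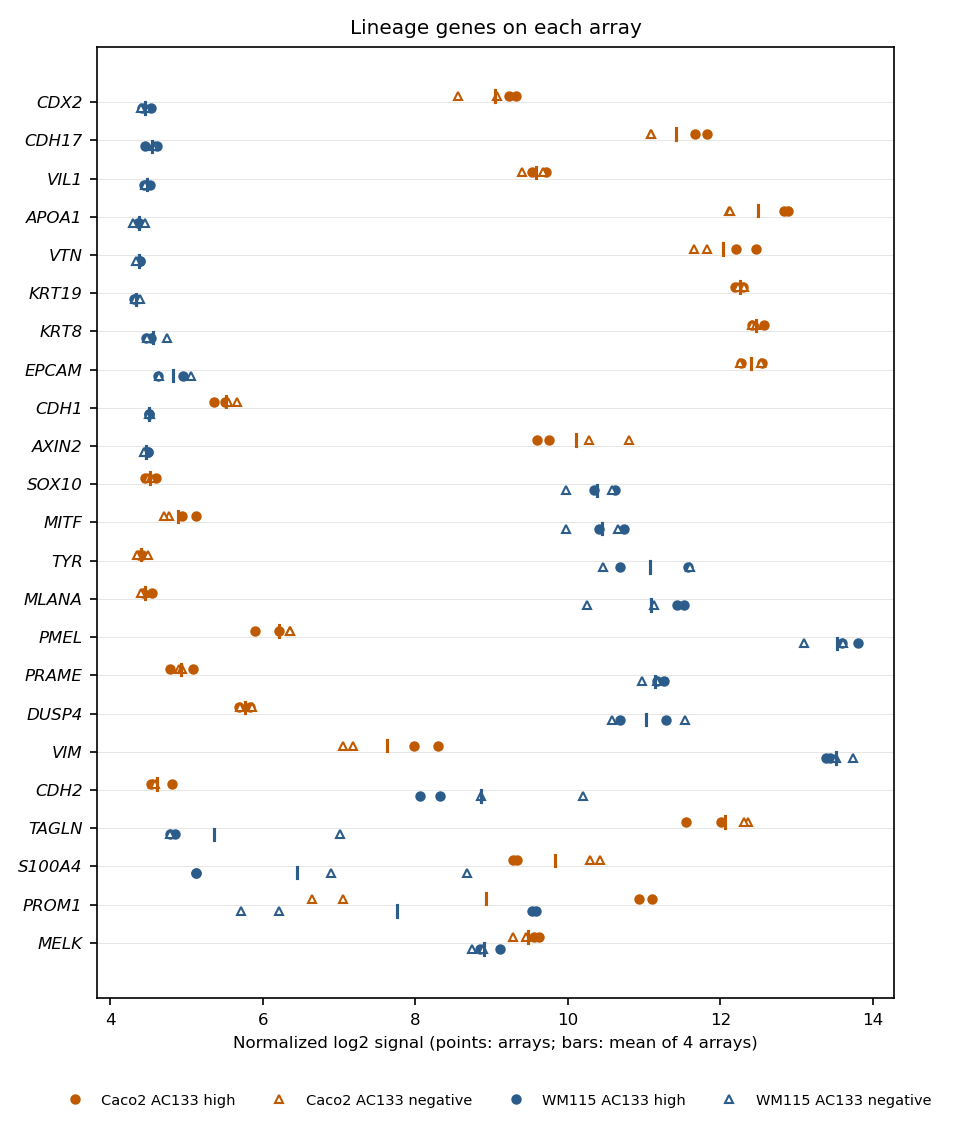
Normalized log2 signal of lineage genes on each array, with AC133 high arrays as circles, AC133 negative arrays as triangles and the mean of 4 arrays as a bar, Caco2 in orange and WM115 in blue. The lines separate fully for all but PROM1, and CDH1 lies at 5.36 to 5.65 in Caco2, close to the undetected level seen in WM115.

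Wnt feedback and intestinal stem cell genes differed in both directions. Of 24 tested, 15 were called higher in Caco2 and 4 lower. Of the 24, 9 were detected in Caco2 alone, and of the 7 detected on all 8 arrays 2 were higher and 2 lower, with a median of 0.16. AXIN2, a feedback inhibitor induced by beta-catenin, had 9.75 and 9.60 in AC133 high and 10.80 and 10.28 in AC133 negative Caco2 cells, against 4.43 to 4.49 in WM115, at least 41.9-fold higher. The feedback genes NKD1, SP5, NKD2 and RNF43 differed by 4.11, 3.89, 3.07 and 2.27, BMP4 by 5.72, and the stem cell receptor gene LGR5 by 1.29. DKK1, a secreted Wnt antagonist, had 12.66 ± 0.091 in Caco2 and was undetected in WM115 except on the AC133 negative array of sort 2, with 8.45 there against 4.47, 4.67 and 4.50. Its difference was 7.14, 8.13 without that array and 6.15 without the AC133 negative array of sort 1. Among the 4 lower were LEF1, the factor that binds beta-catenin, with 8.40 ± 0.50 in Caco2 and 10.53 ± 0.21 in WM115, CD44 (-2.27), and the Wnt antagonist SFRP1, at least 25.7-fold lower.

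Pigment cell genes were lower in Caco2. Of 28 melanosome and pigment genes tested, 23 were called lower in Caco2 and 1 higher, with a median difference of -3.56, and of the 13 detected on all 8 arrays 9 were lower and 1 was higher. PMEL, which encodes the fibrils of the melanosome, was detected in both lines, with 5.90 and 6.21 in AC133 high and 6.35 and 6.36 in AC133 negative Caco2 cells, against 13.80 and 13.60 in AC133 high and 13.61 and 13.10 in AC133 negative WM115 cells. The difference of -7.32 (SE 0.15) is 160.3-fold, and no array overlapped. TYR, the tyrosinase gene, ranged from 4.34 to 4.49 in Caco2, against 10.46 to 11.61 in WM115, at least 79.9-fold lower in Caco2. In WM115 both TYR arrays of sort 1 (11.58 and 11.61) lay above both of sort 2 (10.69 and 10.46). MLANA, which marks melanocytes in pathology, was at least 80.0-fold lower and GPNMB, a PMEL relative, at least 139-fold lower. The pigment transporter genes SLC45A2, OCA2 and SLC24A5 differed by -6.18, -3.70 and -3.21, the melanosome transport genes MLPH, RAB27A and MYO5A by -5.36, -4.09 and -3.52, and RAB38 and RAB32, which sort enzymes into melanosomes, by -5.62 and -3.72. MC1R, the receptor for melanocyte stimulating hormone, differed by -5.23. TYRP1, a partner of tyrosinase, was lower by a smaller amount, -2.27. KITLG, the ligand that skin cells supply to melanocytes, was the gene higher in Caco2, with 9.11 ± 0.30 in Caco2 and 5.37 ± 0.38 in WM115. Its receptor gene KIT was detected on 1 array of each line and not tested, and the pigment gene DCT was not among the genes tested.

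Promoters of pigment genes are shown because MITF binds the M-box, TCATGTG. Of other lists, 2 of 11 brush border genes called higher (18.2%) and 1 of 8 intestinal and hepatic transcription factor genes called higher (12.5%) held it. So did 1 of 10 neural crest and mesenchymal transcription factor genes called lower (10%) and 1 of 18 plasma protein genes called higher (5.56%). Of apolipoprotein and lipoprotein assembly genes called higher 0 of 5 held it. It was found in 6 of 19 melanosome genes called lower in Caco2 (31.6%), against 2.99% of all 27305 promoters. The 3 holders with the largest differences follow in the same format, with the match in capitals, which reads CACATGA on the opposite strand. The matches lie 123 and 62 bases before the start of GPNMB, 105 before that of TYR, and 61 and 33 before that of GPR143, a receptor of the melanosome membrane.
GPNMB, chr7:23246525-23246824, plus strand: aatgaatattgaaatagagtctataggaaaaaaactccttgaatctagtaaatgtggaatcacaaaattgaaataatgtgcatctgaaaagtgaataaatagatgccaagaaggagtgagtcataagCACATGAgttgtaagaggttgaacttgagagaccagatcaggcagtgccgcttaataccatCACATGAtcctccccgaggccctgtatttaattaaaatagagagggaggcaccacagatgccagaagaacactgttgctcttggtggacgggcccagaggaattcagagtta
TYR, chr11:89177625-89177924, plus strand: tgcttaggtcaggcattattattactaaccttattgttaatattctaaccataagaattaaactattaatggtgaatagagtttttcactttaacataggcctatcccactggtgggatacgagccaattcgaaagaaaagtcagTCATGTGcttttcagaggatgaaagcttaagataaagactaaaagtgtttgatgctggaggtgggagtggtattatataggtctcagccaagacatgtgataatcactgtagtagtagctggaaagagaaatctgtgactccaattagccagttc
GPR143, chrX:9765798-9766097, minus strand: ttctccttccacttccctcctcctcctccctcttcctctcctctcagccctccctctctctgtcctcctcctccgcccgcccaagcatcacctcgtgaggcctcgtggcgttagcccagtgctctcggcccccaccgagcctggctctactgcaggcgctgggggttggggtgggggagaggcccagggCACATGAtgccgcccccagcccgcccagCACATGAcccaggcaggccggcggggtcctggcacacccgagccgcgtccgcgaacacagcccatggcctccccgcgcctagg

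Transcription factor genes of neural crest and mesenchyme were mostly lower in Caco2. Of 26 tested, 17 were called lower and 5 higher, and of the 7 detected on all 8 arrays 4 were lower and 1 was higher. SOX10, which specifies melanocytes and Schwann cells, had 4.46 to 4.60 on the Caco2 arrays, with no array detecting it, against 10.35 and 10.61 in AC133 high and 10.57 and 9.98 in AC133 negative WM115 cells, at least 49.0-fold lower in Caco2. MITF had 4.88 ± 0.19 in Caco2 and 10.45 ± 0.34 in WM115, a difference of -5.56, and 3 of 4 Caco2 arrays detected it. RUNX3 (-5.74), TFAP2A, which acts in crest and skin (-5.61), SNAI2 (-5.49), ZEB2 (-4.54), ETS1 (-4.20), POU3F2 (-3.80), ALX1 (-3.77), DLX1 (-3.65), TBX2 (-3.52) and TWIST1 (-3.18) were lower too. A second RUNX3 probe differed by -0.65 and was not called. PAX3 was not called at -0.79, SNAI1 at -0.29 and TBX3 at 0.13, and ZEB1 was detected on no array. SOX9, which acts in crest, cartilage and the intestinal crypt, ran the other way, with 8.98 and 8.87 in AC133 high and 9.03 and 8.63 in AC133 negative Caco2 cells, against 4.55 to 4.68 in WM115, at least 17.9-fold higher. MSX2, MSX1, TCF4 and FOXD1 were the others higher in Caco2, at 3.05, 2.72, 2.67 and 1.14.

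**Figure D3:**
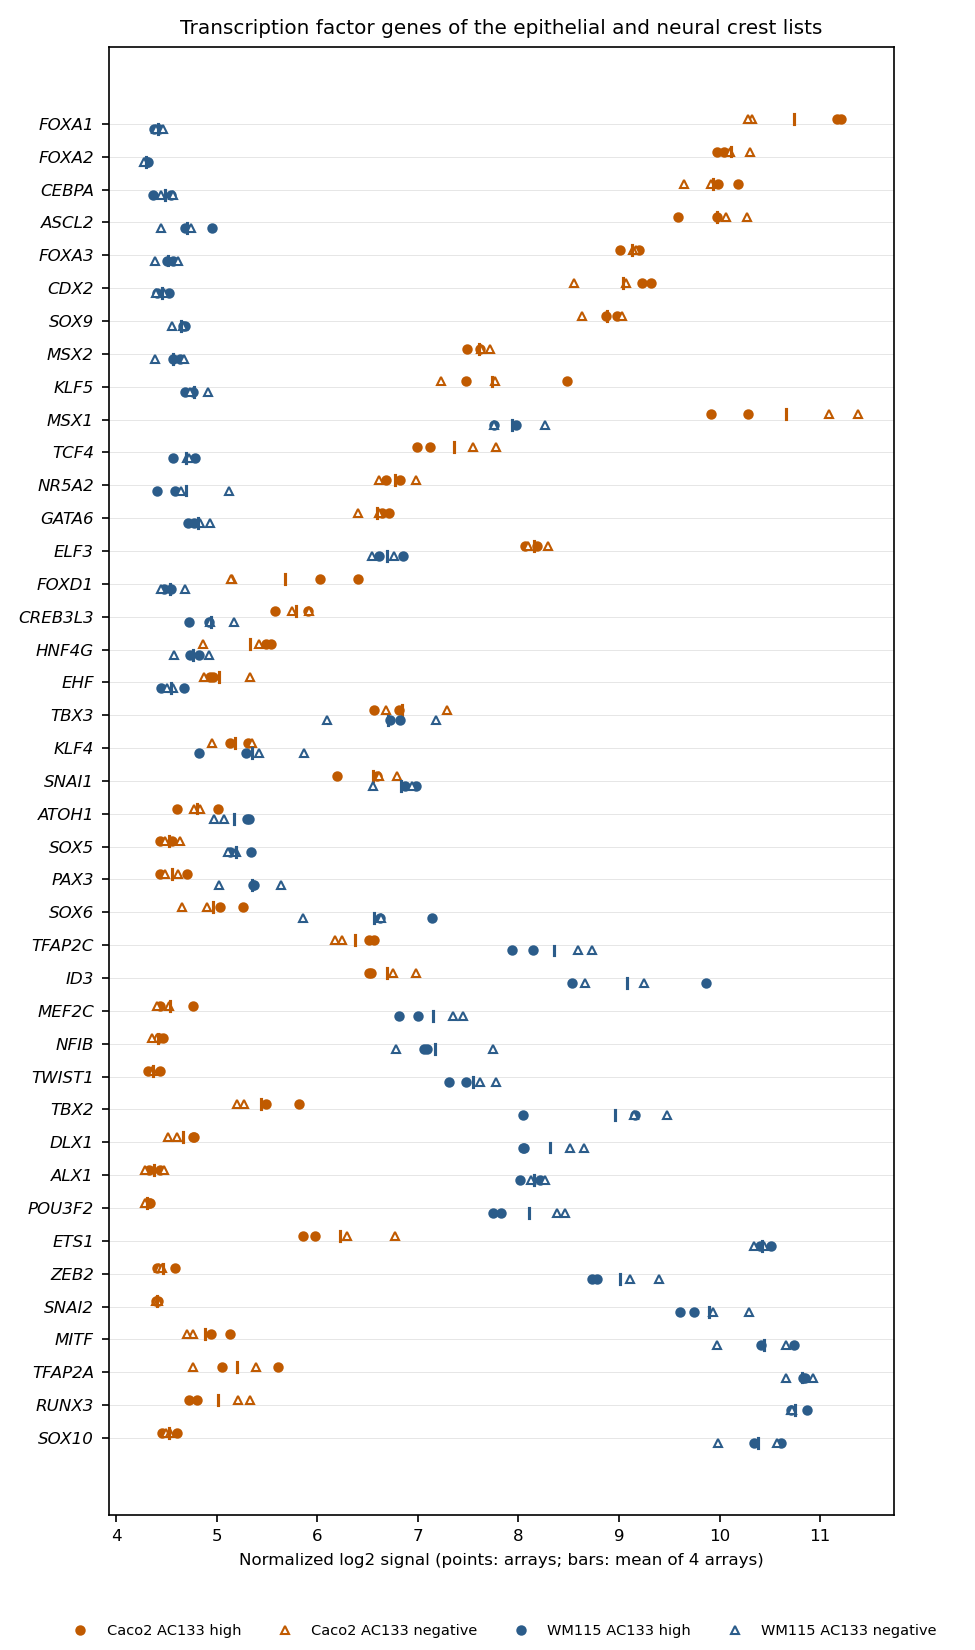
Normalized log2 signal on each array of the tested transcription factor genes of the intestinal and hepatic list and of the neural crest and mesenchymal list, ordered by the line difference, with symbols as above for gate and line. The genes run from FOXA1, at 10.28 to 11.21 in Caco2 and 4.38 to 4.46 in WM115, to SOX10, with SOX9, MSX2, MSX1 and TCF4 among those higher in Caco2.

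Surface and matrix genes of melanoma and mesenchyme differed in both directions, with more of them lower in Caco2. Of 29 genes of melanoma surface and neural crest derivatives, 18 were called lower in Caco2 and 5 higher, and of the 15 detected on all 8 arrays 7 were lower and 4 higher. GPM6B, a membrane protein of glia and melanocytes, was at least 62.0-fold lower, the melanoma inhibitory activity gene MIA differed by -4.56, the melanoma proteoglycan gene CSPG4 by -3.55 and the adhesion genes MCAM and L1CAM by -1.95 and -2.00. The 5 higher in Caco2 were NRP1, CDH3, CADM1, TNFRSF21 and NES, at 4.05, 2.77, 2.48, 2.03 and 1.67. Of 37 mesenchymal and matrix genes, 20 were lower and 10 higher, and of the 17 detected on all 8 arrays 8 were lower and 4 higher. VIM, the intermediate filament of mesenchymal cells, had 7.98 and 8.30 in AC133 high and 7.05 and 7.18 in AC133 negative Caco2 cells, against 13.44 and 13.38 in AC133 high and 13.51 and 13.74 in AC133 negative WM115 cells, a 59.3-fold lower level in Caco2. The galectin gene LGALS1 was 160.2-fold lower, with 5.03 to 5.29 in Caco2 and 12.27 to 12.96 in WM115. SERPINE2, a protease inhibitor, SPARC, a matrix glycoprotein, THBS2, TIMP1, LUM and TNC differed by -6.09, -5.08, -6.27, -6.66, -4.99 and -4.96. CDH2, which encodes N-cadherin, had 4.62 ± 0.13 in Caco2 and 8.86 ± 0.95 in WM115, with a spread in WM115 of 8.06 to 10.20.

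The mesenchymal genes higher in Caco2 included several that differed among the WM115 arrays. TAGLN, an actin binding protein of smooth muscle, had 11.56 and 12.01 in AC133 high and 12.37 and 12.31 in AC133 negative Caco2 cells, against 4.78 and 4.84 in AC133 high and 4.78 and 7.02 in AC133 negative WM115 cells, and its difference of 6.71 became 7.26 when the sort 2 array of AC133 negative WM115 cells was omitted and 6.15 on omitting the sort 1 array. TGFBI, a matrix protein induced by TGF-beta, had 10.94 ± 0.20 in Caco2 against 5.40 and 5.35 in AC133 high and 4.99 and 8.49 in AC133 negative WM115 cells, a difference of 4.88, with 5.76 and 4.01 on the same omissions. S100A4, an S100 family gene of motile cells, had 9.29 and 9.33 in AC133 high and 10.29 and 10.42 in AC133 negative Caco2 cells, against 5.12 and 5.12 in AC133 high and 6.89 and 8.67 in AC133 negative WM115 cells, a difference of 3.38, with 3.83 and 2.93 on them. For these 3 genes the highest WM115 value was on the AC133 negative array of sort 2, and all 4 Caco2 arrays lay above it. PDGFRA, COL5A2, CCN1, FN1, CDH11 and LAMB1 were also higher in Caco2, at 3.97, 3.40, 2.80, 2.19, 2.14 and 1.23, and CCN1 was at 3.63 and 1.97 on those omissions. The remaining call, the collagenase gene MMP1, had 7.23 and 7.57 in AC133 high and 6.48 and 5.89 in AC133 negative Caco2 cells, against 4.43 and 4.56 in AC133 high and 5.17 and 7.72 in AC133 negative WM115 cells. The lines overlapped for MMP1, and its difference of 1.32 (adjusted p 0.0332) lost the call with sort within line as a random block (adjusted p 0.0517) and on omission of any array but the WM115 negative one of sort 2, at 0.68 to 1.47, against 1.96 without that array.

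Cancer-testis antigen genes, normally silent outside the germ line, were called lower in Caco2 for 9 of 13 tested and higher for 0, and 10 of the 13 were detected in WM115 alone. MAGEA3 ranged from 4.50 to 4.51 in Caco2 against 8.41 to 8.77 in WM115, at least 14.1-fold lower, and MAGEA1, MAGEC1, MAGEA6 and MAGEA12 were at least 12.2-fold, 16.9-fold, 10.1-fold and 7.01-fold lower. MAGEA3 and MAGEA6 are near-identical copies, so their probes may read both. PRAME, the one detected on all 8 arrays among those called, had 4.93 ± 0.12 in Caco2 and 11.14 ± 0.12 in WM115, and MAGED1, a broadly expressed relative, was not called at 0.20. SSX1, SSX2 and MAGEC2 were detected on no array.

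Genes under the MAPK pathway, through which growth factor receptors act, gave 7 of 20 lower in Caco2 and 1 higher. DUSP4, a phosphatase that ERK induces and that acts back on it, had 5.68 to 5.86 in Caco2 against 11.28 and 10.69 in AC133 high and 11.54 and 10.58 in AC133 negative WM115 cells, a 38.2-fold lower level. As with TYR, both WM115 arrays of sort 1 lay above both of sort 2. PHLDA2, IER3, SPRED1, ETV5, SPRY2 and FOSL1 differed by -2.14, -1.94, -1.79, -1.71, -1.53 and -1.06 (-0.996 to -0.913, not called, on omitting any of 4 arrays, both Caco2 ones of sort 1 and both WM115 ones of sort 2), while DUSP6, SPRY1, ETV4, CCND1 and EGR1 were not called, at -0.41, 0.11, -0.97, -0.71 and 0.96. The higher one was the ephrin receptor gene EPHA2, at 2.69.

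HOX genes, which record position along the body axis, were mostly dim. Of 29 with a probe, 16 were tested, 4 were lower in Caco2 and 2 higher, and of the 8 detected on all 8 arrays 1 was lower and 1 higher. HOXC4 had 5.38 and 5.72 in AC133 high and 5.10 and 4.82 in AC133 negative Caco2 cells, against 8.83 to 9.09 in WM115, a difference of -3.72. HOXB5, HOXC6 and HOXD8 differed by -2.40, -2.19 and -1.22, and a second HOXC6 probe by -0.25, which was not called. HOXB4 was at least 2.13-fold higher in Caco2, and HOXB9 had 7.35 and 7.24 in AC133 high and 6.07 and 6.66 in AC133 negative Caco2 cells against 5.26 to 6.06 in WM115. HOXB9 therefore nearly met WM115 in AC133 negative Caco2 cells, where the lowest array had 6.07. The other 10 tested, HOXB6, HOXC13, HOXB1, HOXD3, HOXA2, HOXB7, HOXC10, HOXD13, HOXC9 and HOXC8, were not called, with differences of -0.96 to 0.75.

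Antigen presentation and interferon genes were lower in Caco2 where they were called, with few exceptions. Among 17 HLA class I and antigen processing genes 6 were lower and 1 higher, and of the 14 detected on all 8 arrays 3 were lower and 1 was higher. TAP1, which pumps peptides into the endoplasmic reticulum, had 5.67 to 6.09 in Caco2 against 8.81 and 8.61 in AC133 high and 8.73 and 9.78 in AC133 negative WM115 cells, 8.47-fold lower. The immunoproteasome gene PSMB8 differed by -2.88, HLA-F by -1.78, TAP2 by -1.47, HLA-E by -1.46 and HLA-C by -1.08 (-0.86, not called, without the WM115 negative array of sort 2), whereas HLA-B (-0.80) and B2M (-0.78) missed the 2-fold limit. The HLA genes are alike in sequence and differ between cell lines, which can alter how a probe binds. A second TAP2 probe differed by -0.37 and was not called. The peptide trimming gene ERAP2 was the exception, at 1.67. Of 25 interferon response genes 13 were lower and 3 higher, and of the 13 detected on all 8 arrays 5 were lower and 3 higher. IFI44 was at least 14.6-fold lower and SP110 at least 12.5-fold lower, LGALS3BP and ISG20 differed by -3.68 and -3.58, and IFIT1 by -2.46 (-2.96 to -1.93 over the alternatives). The median level of the interferon genes was 8.03 on the WM115 negative array of sort 2, 6.12 to 6.83 on the other WM115 arrays and 5.08 to 5.41 in Caco2. For the HLA class I list these medians were 9.69, 8.13 to 8.47 and 7.16 to 7.65, so both lists peaked on that array. ISG15, IRF7 and MX1 were the 3 higher, at 1.54, 1.47 and 1.02, and a second IRF7 probe differed by 0.04. ISG15 lost the call, at 0.99, on omitting WM115 negative sort 1, and MX1, which lay close to the 2-fold limit, lost it in 8 of 20 alternatives, with 0.74 to 1.18 over them. Genes of HLA class II and its regulators were largely undetected, with HLA-DRA and CIITA on no array. Of 6 tested 2 were lower in Caco2 and 0 higher, HLA-DQB1 at -2.59 and RFX5 at -1.16. Of the 3 detected on all 8 arrays 1 was lower.

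Cell cycle inhibitors differed gene by gene. CDKN1A, which encodes the inhibitor p21, had 6.09 to 6.58 in Caco2 against 9.64 and 9.92 in AC133 high and 10.30 and 10.62 in AC133 negative WM115 cells, 13.3-fold lower in Caco2. CDKN1B was higher at 1.70. MTAP, a gene of polyamine and methionine metabolism that lies beside CDKN2A on chromosome 9, had 7.07 to 7.69 in Caco2 and was detected on no WM115 array, at least 6.43-fold higher in Caco2. Both neighbouring cell cycle inhibitor genes were detected in WM115. CDKN2A was detected on all 8 arrays with a difference of 0.039 (adjusted p 0.804), and CDKN2B was lower in Caco2, at -2.04, and detected on all 4 WM115 arrays. Of the other tumour suppressor genes tested, FBXW7, STK11, NF1, SMAD2, RB1 and SMAD4 were not called, at 0.56, 0.30, 0.075, -0.50, -0.71 and -0.88.

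The medians of housekeeping lists lay near that of all genes. Of 57 ribosomal protein genes 6 (10.5%) were called higher in Caco2 (RPL28, RPL32, RPL13, RPL37A, RPS23 and RPL23A) and 0 lower, and the list median was 0.13. RPL23A fell short of the limit, at 0.95 to 0.99, on omitting either Caco2 array of sort 2, WM115 high sort 2 or WM115 negative sort 1. With the adjusted p alone, without the 2-fold limit, 12 were higher and 2 lower. A second RPL13 probe differed by -0.14, and transcripts of ribosomal pseudogenes may bind these probes. Of 48 S phase genes 10 (20.8%) were higher and 1 lower, and of the 47 detected on all 8 arrays 10 were higher, against 10.3% of all genes so detected. With the adjusted p alone 20 were higher and 6 lower, against 31.5% and 31.3% of all genes. MCM2, a subunit of the replication helicase, had 9.52 ± 0.32 in Caco2 and 8.22 ± 0.30 in WM115, and MCM10, MCM6, MCM3, POLD3, CCNE1 and E2F1 were higher by 1.22, 1.18, 1.05, 1.54, 1.20 and 1.17. MCM3 was at 0.887 to 0.998, below the limit, on omitting Caco2 high sort 1, WM115 high sort 1 or WM115 negative sort 2. Of 52 mitotic genes 6 (11.5%) were higher and 4 lower, with CDCA3 at 1.45 and the kinesin KIF14 at -1.16. CCNB1, the mitotic cyclin, had 9.83 and 10.22 in AC133 high and 9.75 and 9.71 in AC133 negative Caco2 cells, against 8.97 and 8.96 in AC133 high and 8.24 and 9.04 in AC133 negative WM115 cells, with the AC133 negative array of WM115 sort 1 below the rest. Its difference of 1.07 was 0.87 on omitting that array and 0.98 on omitting Caco2 high sort 2, where it was not called.

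Other genes also had large differences. Among genes detected on all 8 arrays the largest in Caco2 was LYZ, the lysozyme gene of Paneth and blood cells, with 11.28 to 12.35 in Caco2 and 4.79 to 4.83 in WM115, 129-fold higher. The growth factor gene MDK (6.79), the tubulin gene TUBB2B (5.77), the neuropeptide gene GAL (4.88), the lipid transfer gene STARD10 (5.05), the sodium pump subunit gene ATP1B1 (4.61), the transglutaminase gene TGM2 (4.45) and the inhibitor ID2 (4.31) followed, with PDLIM1, SLC2A8 and SLC38A1 at 4.57, 4.48 and 4.39. Lower in Caco2 were the membrane protein gene EMP1 (-6.69), the secreted neuropeptide precursor gene VGF (-6.67), SRPX (-5.71), the globin CYGB (-5.71), SNX10 (-5.62) and LPXN (-5.50). Among genes on the arrays of Caco2 alone were the growth factor gene IGF2, at least 66.9-fold higher, the collagen chaperone SERPINH1 (at least 105-fold), the splicing protein gene SNRPN (at least 83.5-fold), the decarboxylase gene DDC (at least 72.3-fold) and the protease inhibitor SPINT2 (at least 101-fold). Among those on the arrays of WM115 alone, with the lower bound of the fold in parentheses, were RGS1, a brake on G protein signals (103-fold lower in Caco2), GNG11 (92.6-fold), the inflammasome adaptor PYCARD (78.8-fold), the actin linker moesin, MSN (71.3-fold), the oligosaccharyltransferase subunit TUSC3 (58.4-fold), the DNA sensor IFI16 (49.9-fold) and GAPDHS, the sperm form of a glycolytic enzyme (51.1-fold). RGS1 had 12.16 and 10.54 in AC133 high and 12.16 and 10.92 in AC133 negative WM115 cells, again higher in both arrays of sort 1.

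The lines were checked against markers of their labelled types and of other cells. Of the colonic markers CDH17, VIL1, CDX2, KRT20, KRT8, KRT18, EPCAM and CDH1 were detected on all 4 Caco2 arrays, LGALS4 on 2 of them and CDX1 on none, and of the melanoma markers MITF, SOX10, TYR, PMEL, MLANA, SLC45A2, TYRP1 and CSPG4 were detected on all 4 WM115 arrays and S100B on 3. The remaining melanoma marker, DCT, was not among the genes tested. Of 17 blood cell markers with a probe 6 were tested, LYZ and CD14 were higher in Caco2 and CD68 lower, and CD3D, CD3E and MS4A1 were on no array. The summed signal of the tested blood markers, most of it LYZ in Caco2, was 2837 to 5590 on the Caco2 arrays and 602 to 935 on the WM115 arrays. Of 14 endothelial markers with a probe 2 were tested, SOX18 was lower in Caco2 at -3.43, CDH5, CLDN5 and CD34 were on no array, and the summed signal was 43.3 to 49.6 in Caco2 and 269 to 346 in WM115. Keratinocyte markers gave SFN, at least 10.4-fold higher in Caco2, as the one called of 3 tested, with KRT5 and KRT14 on no array and a summed signal of 734 to 1104 in Caco2 and 742 to 932 in WM115. Of 6 intestinal secretory and endocrine genes tested 5 were higher in Caco2, with AGR2 at least 15.8-fold higher, CLCA1 and CHGA on no array, and a summed signal of 4290 to 6245 in Caco2 and 682 to 992 in WM115. The summed signal of the 7 tested hepatocyte markers was 1384 to 1559 in Caco2 and 420 to 542 in WM115. The part of other cells in the line differences was not tested.

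The line differences were alike in both gates. In AC133 high cells 3585 probes (28.2%) were called, 1769 higher in Caco2 (13.9%) and 1816 lower (14.3%), and in AC133 negative cells 3509 (27.6%), 1730 higher (13.6%) and 1779 lower (14%). Of these, 2954 were called in the same direction in both gates and 0 in opposite directions. The differences in the gates had a correlation of 0.961 over the 12691 probes, a description across probes, which are not independent. A test of whether the line difference itself depended on the gate passed for 5 probes (0.0394%), those of CD36, ALB, VCAN, AFP and SCGN, with 699 probes under an unadjusted p of 0.05.

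ALB and AFP, the albumin and alpha-fetoprotein genes of liver, had a larger line difference in AC133 high cells. AFP had 10.27 and 11.02 in AC133 high and 7.16 and 7.51 in AC133 negative Caco2 cells, against 4.49 to 4.51 in WM115, so the line difference was 6.14 in high cells and 2.83 in negative cells (interaction 3.31, adjusted p 0.0226). ALB had 8.60 and 9.16 in AC133 high and 5.77 and 5.93 in AC133 negative Caco2 cells, against 4.59 to 4.78 in WM115, with line differences of 4.23 in high and 1.16 in negative cells (adjusted p 0.0174). For both genes the WM115 arrays lay at or near the undetected level in both gates. SCGN, a calcium binding protein gene of endocrine cells, behaved likewise, with 3.40 and 1.52. CD36, the fatty acid scavenger receptor gene, differed within WM115 instead, with 4.81 and 4.83 in AC133 high and 7.65 and 7.96 in AC133 negative WM115 cells while no Caco2 array detected it. VCAN, a matrix proteoglycan gene, differed between gates in both lines and in opposite directions, with 6.53 and 6.47 in AC133 high and 4.48 and 4.68 in AC133 negative Caco2 cells, against 6.28 and 5.94 in AC133 high and 6.76 and 7.08 in AC133 negative WM115 cells. The count of such probes was unstable, from 0 to 136 with 1 array left out.

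**Figure D4:**
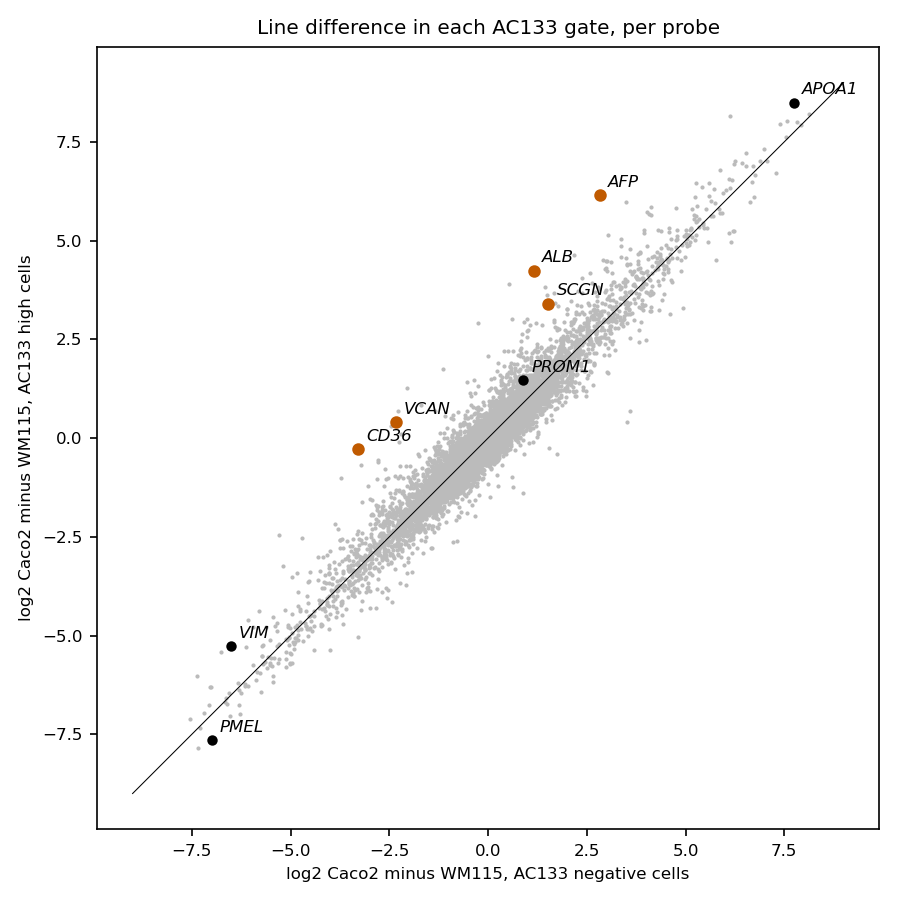
The log2 line difference of each of 12691 probes in AC133 negative cells (horizontal) and in AC133 high cells (vertical), with equality as a line, the 5 probes that passed the interaction test in orange and 4 others named in black. Most probes lie along the line, and CD36, ALB, VCAN, AFP and SCGN lie above it.

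PROM1, whose protein carries the AC133 epitope, was 1.47 higher in Caco2 among AC133 high cells and 0.88 among AC133 negative cells on the log2 scale, 1.18 on average (adjusted p 1.57e-04). It had 10.94 and 11.10 in AC133 high and 6.64 and 7.04 in AC133 negative Caco2 cells, against 9.58 and 9.52 in AC133 high and 5.71 and 6.21 in AC133 negative WM115 cells, so the arrays of the lines overlap over all gates but not within a gate. The gates were set on the PROM1 protein itself, so these values describe the sorted fractions and not the unsorted lines. The PROM1 call was lost in 2 of 20 alternatives. MELK, the kinase gene whose mouse promoter is in the Caco2 reporter, had 9.28 to 9.62 in Caco2 and 8.74 to 9.12 in WM115 and was not called at 0.58.

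The line differences also varied with chromosome, a description added after the values were seen. Over genes detected on all 8 arrays and placed by the GRCh38.p14 annotation, chromosome 11 had a median difference of 0.77, with 182 of 484 genes called higher in Caco2 and 17 lower, and chromosome 10 one of 0.60, with 86 of 322 higher and 12 lower. Chromosomes 14 and 20 had medians of 0.36 and 0.26. Chromosome 21 had the lowest median, -0.56, with 4 of 87 higher and 26 lower, followed by chromosome 7 at -0.38, with 15 of 378 higher and 73 lower. The shares called among all 8225 genes detected on 8 arrays were 10.3% higher and 10.5% lower. The medians of chromosome 11 were 0.77 in AC133 high and 0.80 in AC133 negative cells, and those of chromosome 21 were -0.54 and -0.52. Runs of 25 neighbouring genes were taken at every position along each autosome, and those given here were picked for their extreme medians. The highest median was 1.47, in a run on chromosome 11 with 24 of 25 genes positive. That from YIF1A to CDK2AP2 on chromosome 11 had 25 genes with a positive difference and a median of 1.29. That from IMPDH1 to CREB3L2 on chromosome 7 had 25 with a negative one and a median of -1.04. The run from SLC25A26 to DCBLD2 on chromosome 3 had 22 of 25 negative and a median of -1.55, on a chromosome with a median of 0.12. DNA copy number was not measured here, and its part was not tested.

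**Figure D5:**
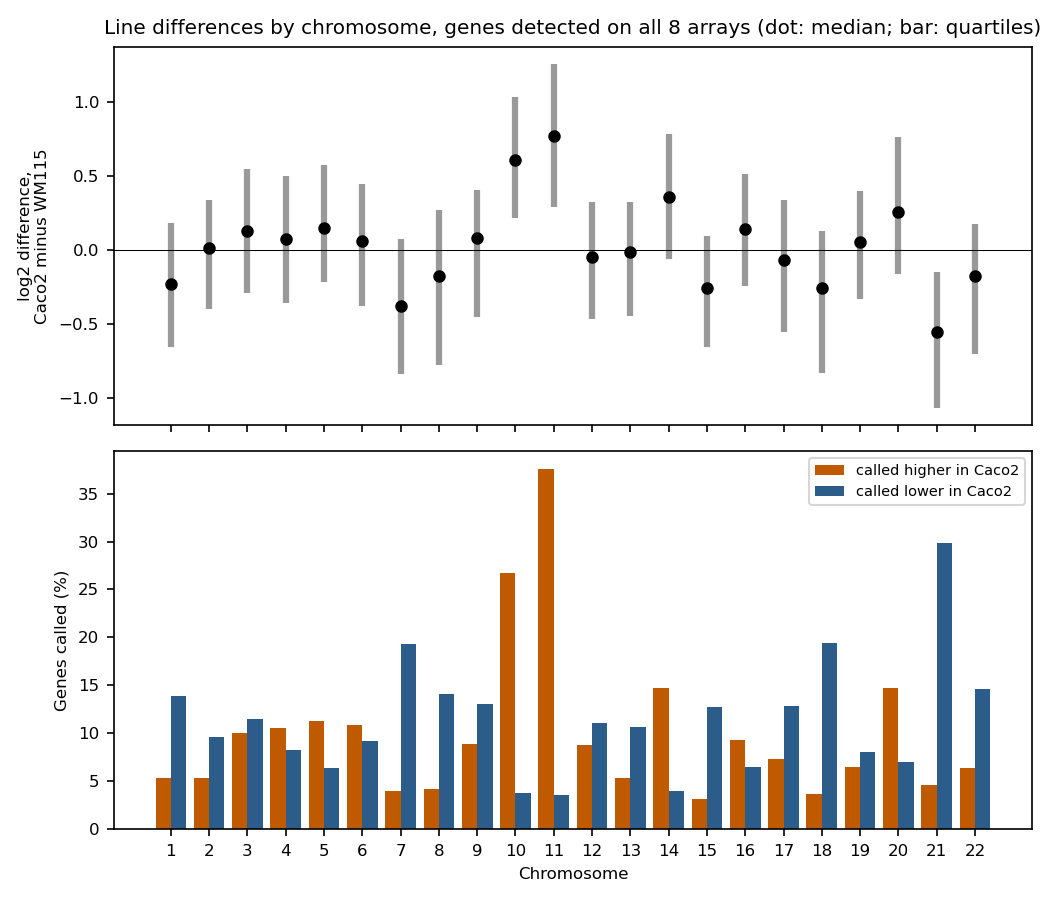
Line differences by autosome for genes detected on all 8 arrays, with the median and quartiles of the log2 difference, Caco2 minus WM115, above and the percent of genes called higher (orange) and lower (blue) in Caco2 below. Chromosomes 10 and 11 stand above 0 with their whole quartile range, and chromosome 21 below it.

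Where a gene had more than 1 tested probe, the probes did not always give the same call. Of 963 such genes, 372 had a called probe, and in 148 of these every probe was called in the same direction, in 222 some probes were not called, and in 3 probes were called in opposite directions. The 3 were ACOT7, CALML4 and ERLIN2. ERLIN2, a gene of the endoplasmic reticulum, had a probe at 1.41 and another at -1.21, both detected on all 8 arrays. ACOT7, an acyl-CoA thioesterase gene, had a probe at 3.98 detected on the Caco2 arrays alone, one at -1.07 detected on the WM115 arrays alone, and its brightest, detected on all 8 arrays, at -0.30 and not called. Across genes the differences of the brightest and the next brightest probe had a correlation of 0.814.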

How the data were processed

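Total RNA of sorted Caco2 and WM115 cells was measured on 8 HumanRef-8 arrays of version 2 and read with BeadStudio 3, per the submitters' processing notes. The deposited intensity of a probe is the mean signal of its beads on a linear scale, and a standard error over beads and a detection p-value accompany it. The deposited bead count per probe had a median of 41 or 42. Whether background was subtracted is not given in the sources used here. The authors' joint table of quantile-normalized intensity served as an alternative.

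Here limma 3.58.1 (R 4.3.3) corrected the intensity for background by normexp, with control levels inferred from detection p-values and 16 added, and the 8 arrays were quantile normalized before the log2 was taken. Gene names came from the platform's annotation, updated through the gene number for 19695 of 22184 probes, and 2469 probes have none. A model of the 4 group means over 8 arrays gave the contrast Caco2 minus WM115, that contrast in each gate, and its difference between gates, with Benjamini-Hochberg adjustment over 12691 probes. With 4 arrays per line, the number of arrays limits the precision. No bead counts entered a test. Named were, among called genes detected on all 8 arrays, the 15 that differed most in each direction, the 15 with the largest lower bound among those detected in 1 line, up to 8 called members per list and direction, the list members that are transcription factors or HOX genes, the cell type markers, PROM1, MELK and the genes past the interaction test. Outside this rule 33 called genes were named after their values were seen, and uncalled members and other probes are given to complete a list. The gene lists and the comparison itself were chosen with earlier results of these data known. The procedure was run on simulated data with independent noise on each array, which could not test the effect of correlation between arrays of a sort. Sort numbers are shared by the lines, but sorts of different lines share only a number. The alternatives were other scalings, background corrections, filters, blocks by sort and leaving out each array.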

Additional observations from a re-analysis of the deposited data

Results flagged for a closer look

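Of 162 sets of 4 arrays examined, for 55 genes and 26 list medians in each line, the 10 below had 1 array far from the other 3 by Dixon's ratio, the gap of the extreme array to its nearest neighbour divided by the whole range. Chance would flag about 1 in 20 independent sets, but these sets share arrays and genes. On 1 array the TGFBI value is also the median of its list. The part of chance in the number flagged was therefore not tested. The AC133 negative array of WM115 sort 2 was the outlying one for DKK1, with 8.45 against 4.47 to 4.67 (ratio 0.951), for TAGLN, with 7.02 against 4.78 to 4.84 (0.971), and for TGFBI, with 8.49 against 4.99 to 5.40 (0.882). On the same array the median level of the mesenchymal and matrix genes was 8.49 against 6.77 to 6.96 (0.887), that of the conjugation and bile acid genes 5.20 against 4.82 to 4.83 (0.979), and that of the intestinal secretory and endocrine markers 4.51 against 4.62 on the others (0.968). The AC133 negative array of WM115 sort 1 was the low one for CCNB1, with 8.24 against 8.96 to 9.04 (0.902), and for SOX9, with 4.55 against 4.66 to 4.68 (0.845), where SOX9 was undetected on every WM115 array. The median of the liver plasma protein genes was 4.51 on the AC133 high array of WM115 sort 2 against 4.56 to 4.57 (0.853). This median and that of the secretory and endocrine markers lay near the undetected level of about 4.5. Their gaps were small, and the ratio takes no account of the size of a gap. In Caco2 the mesenchymal and matrix median was 5.24 on the AC133 negative array of sort 2 against 5.98 to 6.06 (0.909).

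The line difference depended on the gate for 5 genes, tested as an interaction in limma. The line difference in AC133 high cells minus that in AC133 negative cells was 3.31 for AFP (adjusted p 0.0226), 3.08 for ALB (0.0174), 3.02 for CD36 (0.00717), 2.73 for VCAN (0.0174) and 1.88 for SCGN (0.0368), on the log2 scale. Each gate has 2 arrays per line.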

How the results depend on the processing

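The count of 3549 probes called between the lines was 3470 to 3608 with 1 array left out, 3552 with the sort number as a replicate block, 3544 with sort within line as a random block and 2805 in the authors' table, which shared 2804 probes with it. It became 1981 over probes detected on all 8 arrays, 7825 on the adjusted p alone and 1341 with a minimum log2 difference of 2. The count in AC133 high cells, 3585, was 3456 to 3683 with 1 array left out and 2035, 6235 and 1377 under those 3 settings, and that in AC133 negative cells, 3509, was 3478 to 3653 and 1989, 6241 and 1343. The 5 interaction calls became 8 with median scaling, 3 with median scaling on detected probes (a setting chosen after seeing the data), 9 with detection required by group and 0 over probes detected on all 8 arrays, where fewer probes were tested. With 1 array left out they numbered 0 to 136, with 136 on omitting the sort 1 array of WM115 negative cells, 1 on omitting their sort 2 array, 3 on omitting the sort 2 array of Caco2 negative cells, 4 on omitting the sort 1 array of Caco2 high cells, and 0 on omitting any of the other 4. The cause was not tested. Under the replicate block 5 remained as a count. Deviations of same-numbered sorts correlated at -0.204 to 0.198 between lines. Those of the high and negative arrays of a sort correlated at 0.289 in Caco2 and 0.185 in WM115, and the main fit treats these arrays as separate. The interaction was not refitted with sort within line as a random block.

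All 290 called genes among 311 named kept their direction under the alternatives run, and 24 lost the call under at least 1. MMP1 lost it under 12 of 19, MX1 under 8 of 20, CDK1, FOSL1 and RPL23A under 6 of 20 each, and CDH1 under 4 of 19. Uncalled genes near 0 changed sign. With 1 array left out HOXA2 ranged from -0.30 to 0.010, reversing on omission of Caco2 high sort 1, HOXB1 from -0.0066 to 0.31, reversing on omission of Caco2 high sort 2, TBX3 from -0.14 to 0.40, reversing on omission of WM115 negative sort 1 and, at -0.022, of Caco2 negative sort 1, and HOXD3 from -0.12 to 0.27, reversing on omission of WM115 high sort 1 and, at -0.030, of WM115 negative sort 2. S phase genes called higher numbered 5 to 12 and mitotic genes 2 to 7 over the alternatives, against 10 and 6. For probes near background the log2 difference understates the fold, since signal there is set by the array's background.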
